A study of Homo sapiens with 4 samples.

Results

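Tall m6A peaks of limited width are the places in the deposited peak lists where immunoprecipitated RNA piled up high over a short stretch of the genome. They were chosen by 2 measured values, a summit height (the authors' pileup value) of at least 300 and a length of at most 1000 bp. The control list held 1519 such peaks of 63093 and the CDCA list 1334 of 52188, so that 2853 of 115281 listed peaks are described here. The samples were GES-1 cells, a human gastric epithelial line, either without treatment or given chenodeoxycholic acid (CDCA, a primary bile acid) at 100 µM for 48 h, each with an input and an m6A immunoprecipitation library. The comparison is between the m6A sites of treated and of untreated cells. Peaks were listed for each of the 2 immunoprecipitation libraries, so there was 1 library per condition, no replicate, and no test between conditions. The cell line was not checked against marker genes, and the peak lists give neither gene names nor strand.

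N6-methyladenosine is placed on messenger and long noncoding RNA by a methyltransferase complex with METTL3 at its core and is removed by the demethylases ALKBH5 and FTO. In immunoprecipitation sequencing, RNA is broken into pieces, an antibody retains the pieces that carry the mark, and overlapping pieces stack up over the methylated base, so that the summit of the stack marks its approximate position. The mark is known to favour long internal exons and the region around stop codons. Height depends on how much of the RNA is present as well as on how much of it is methylated. Fold enrichment divides the height by a local background. This corrects for the first only as far as that background follows the amount of RNA. Regions are given by position on hg19, the build named in the submitters' processing notes. Genes, exons and sequences of that build were not used here.

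Height and length were set by the choice of these peaks and are given as a description. Their median height was 506 in control (quartiles 375 and 778) and 509 in CDCA (379 and 793), against 25.9 and 19.2 for all other peaks. Their median length was 586 bp in control (434 and 751) and 566 bp in CDCA (424 and 739), against 226 and 223 bp for all other peaks. They made up 72.6% of the 2093 control peaks and 74.8% of the 1784 CDCA peaks with a height of at least 300, and the remaining 574 and 450 were longer than 1000 bp. The band next to the lower limit, 300 to 500, held 49.0% of them in control and 49.2% in CDCA. In control, 745 peaks lay between 300 and 500, 535 between 500 and 1000, 167 between 1000 and 2000, and 72 at 2000 or above. In CDCA these numbers were 656, 468, 143 and 67.

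The limits fell within a continuous run of values. In control, the 3 lowest heights inside were each 300.1 and the 3 highest outside were each 299.3. In CDCA, the 3 lowest inside were each 300.6, and the 3 highest outside were 299.99, 299.99 and 299.4. The longest control peaks inside measured 999, 997 and 997 bp, and the shortest tall ones outside 1001, 1001 and 1003 bp. In CDCA these were 995, 995 and 994 bp inside and 1001, 1003 and 1004 bp outside.

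Fold enrichment, the height over the local background, had a median of 18.7 in control (quartiles 10.9 and 31.6) and 18.5 in CDCA (11.1 and 31.4). It ranged from 6.01 to 232 in control and from 6.02 to 255 in CDCA, and 312 control peaks (20.5%) and 271 CDCA peaks (20.3%) were below 10. Enrichment did not rise with height throughout. From the 300 to 500 band to the 1000 to 2000 band the median fold rose from 16.9 to 24.5 in control and from 16.6 to 23.8 in CDCA. At 2000 and above it was 18.6 and 18.8, and the local background there had a median of 193 and 173. Over all tall, limited-width peaks the median background was 28.2 in control and 29.0 in CDCA, against 1.28 and 1.0 for all other peaks. The background was a whole number, within 0.01, at 75.8% of these control peaks and 77.5% of these CDCA peaks, against 23.9% and 22.4% of all other peaks.

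The highest fold among these control peaks, 232, belonged to chr22:21353973-21354781, which stood 1157 high over a background of 4. Its CDCA partner was 2210 bp long and so fell outside the length limit, with a height of 1093 and a fold of 122. The highest in CDCA, 255, belonged to chr2:24222445-24223050, with a height of 697 over a background of 1.74. Its control partner stood at 748 with a fold of 150. Both stood above the median height of their list over a background of 4 or less. The shortest of the tall peaks, chr3:101293121-101293322 in control, measured 202 bp with a height of 424, a fold of 7.09 and no CDCA partner. The shortest in CDCA, chr7:44646229-44646449, measured 221 bp, had a height of 325 and met a control peak of height 259.

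Among peaks of at most 1000 bp, the same 3 sites were the tallest in both libraries, while the tallest peak of any length stood at 16045.5 in control and 13695 in CDCA. At chr11:122928177-122928575 the height was 15166 in control and 12901 in CDCA, with summits 3 bp apart. At chr6:132269800-132270624 it was 11192 in control and 13342 in CDCA, with summits 6 bp apart. At chr11:65267580-65267975 it was 10487 in control and 9913 in CDCA, with summits 11 bp apart. CDCA was the lower of the libraries at both chromosome 11 sites and the higher at the chromosome 6 site. The fourth within the length limit was in both chr8:143784519-143784929, with 6337 in control and 7133 in CDCA. The fifth was chr11:62299819-62300470 in control (5909, against 5923 in CDCA) and chr16:70286315-70286849 in CDCA (5929, against 5220 in control). In control, the chromosome 6 site and the 3 chromosome 11 sites had a fold between 13.3 and 15.3 and a background between 388 and 989, while the chromosome 8 site had a fold of 45.3 over a background of 139.

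The peaks were spread over chromosomes 1 to 22 and X. In control they made up the largest share of all listed peaks on chromosomes 22 (41 of 967, 4.24%, exact 95% interval 3.06 to 5.71) and 17 (97 of 2380, 4.08%, 3.32 to 4.95). In CDCA the largest shares were on chromosomes 17 (89 of 1946, 4.57%, 3.69 to 5.60) and 20 (50 of 1120, 4.46%, 3.33 to 5.84). The smallest control share was on chromosome 6 (58 of 3903, 1.49%, 1.13 to 1.92) and the smallest CDCA share on chromosome 4 (35 of 2603, 1.34%, 0.938 to 1.87). Most stood alone: 213 of the 1519 control peaks (14.0%) and 141 of the 1334 CDCA peaks (10.6%) had another tall, limited-width peak of the same list within 5 kb.

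Nearly all of these peaks had a counterpart in the other library. A peak of the other list overlapped 1399 of 1519 control peaks (92.1%, exact Clopper-Pearson 95% interval 90.6 to 93.4) and 1229 of 1334 CDCA peaks (92.1%, 90.6 to 93.5). These and the following intervals cover counting error only. Of the control peaks, 969 (63.8%) met a CDCA peak that was itself tall and of limited width, 103 (6.78%) met a tall CDCA peak longer than 1000 bp, 327 (21.5%) met a peak below 300 and 120 (7.90%) met none. Of the CDCA peaks, 970 (72.7%) met such a control peak, 136 (10.2%) a tall longer one, 123 (9.22%) one below 300 and 105 (7.87%) none. Partners below 300 had a median height of 235 in CDCA (quartiles 188 and 270) and 262 in control (212 and 279). Overlaps were nearly all simple, since 13 control peaks and 7 CDCA peaks met more than 1 peak.

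Among peaks of at most 1000 bp, the share with a partner rose with height in the peak's own list up to a height of 1000. It was 6.84% below 30 in control and 9.01% in CDCA, 19.9% and 40.4% between 30 and 100, and 73.2% and 80.4% between 100 and 300. Within the tall peaks it was 89.4% (87.0 to 91.5) and 89.8% (87.2 to 92.0) between 300 and 500. Between 500 and 1000 it was 93.6% (91.2 to 95.6) and 94.9% (92.5 to 96.7). At 1000 and above it was 97.1% (94.1 to 98.8) in control and 93.3% (89.1 to 96.3) in CDCA. The interval at 1000 and above lay clear of that at 300 to 500 in control, and overlapped it in CDCA. Tall peaks longer than 1000 bp had a partner in 97.6% (95.9 to 98.7) and 97.1% (95.1 to 98.5) of cases.

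**Figure D1:**
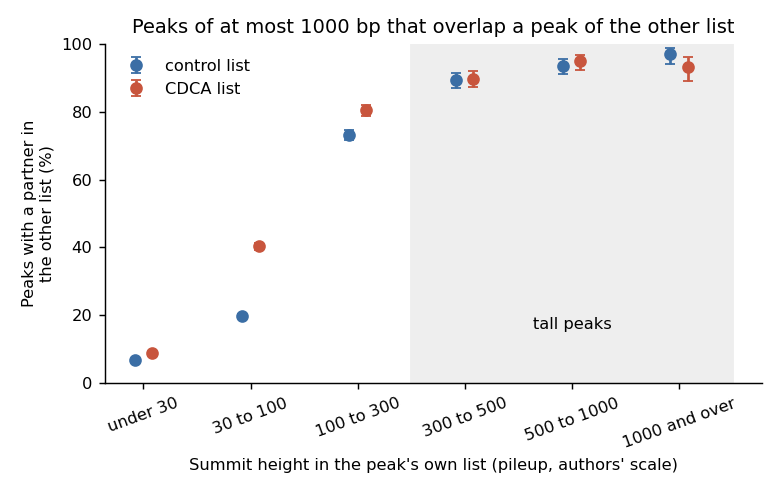
Share of peaks of at most 1000 bp that overlap a peak of the other list (y axis, percent) by summit height in their own list (x axis, authors' scale), for control (blue) and CDCA (red). Bars are exact 95% intervals, and the shaded bands, at heights of 300 and above, hold the tall peaks, all with shares between 89.4% and 97.1%.

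The peaks without any counterpart had low enrichment. The 120 control peaks had a median fold of 7.89 (quartiles 6.64 and 10.4) and the 105 CDCA peaks 7.73 (6.88 and 9.08), against 20.2 for partnered peaks of each list. A fold below 10 was found in 86 of 120 (71.7%) and 87 of 105 (82.9%), against 16.2% of 1399 partnered control and 14.97% of 1229 partnered CDCA peaks. Median height was 405 in control and 421 in CDCA, against 520.1 and 518 with a partner. Their median background was 52.8 and 54.0, against 26.8 and 27.0, and their median length 437 and 402 bp, against 597 and 580 bp. No listed peak of either library had a fold under 6. Whether the peaks without a counterpart had one of lower fold in the other library was not tested.

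Each list numbers its peaks and leaves numbers out, so that a gap in the numbering shows that a peak was numbered somewhere between 2 listed neighbours, without giving its place. All 120 control peaks without a partner fell where the CDCA numbering skipped at least 1 number (lower 95% limit 97.0%), and all 105 CDCA peaks lay in such gaps of the control list (lower limit 96.5%). Among unpartnered peaks of at most 1000 bp and lower height, this share was smaller. In control it was 70.4% below a height of 30, 77.6% between 30 and 100 and 93.1% (91.3 to 94.7) between 100 and 300. In CDCA it was 60.3%, 76.6% and 95.2% (93.1 to 96.9). The length of sequence between the listed neighbours was not held equal between these bands, and whether the left-out peak was the counterpart was not tested.

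The tallest control peak without a partner lay at chr1:86048463-86049005, with a height of 3375, a fold of 6.13 and a background of 550.0. It was followed by chr8:11702138-11702634 (2464, fold 6.44), chr7:150932137-150932795 (1272, fold 11.4), chr12:76423479-76423891 (1226, fold 6.07) and chr21:47423471-47423942 (1184, fold 8.71). In CDCA the tallest was chr6:26250589-26250891, with a height of 2377, a fold of 6.02 and a background of 394. After it came chr1:93300239-93300666 (2250, fold 9.34), chr2:10924086-10924400 (2122, fold 7.20), chr20:32677274-32677769 (1994, fold 7.79) and chr3:184052575-184052908 (1885, fold 9.38). All 10 combined a great height with a background of at least 111, and 4 of the control and 5 of the CDCA peaks had a fold below 10. The nearest listed peak of the other library was between 354 and 116484 bp away.

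Where tall, limited-width peaks of both lists overlapped, their summits mostly lay close together. There were 970 such pairs, from 969 control and 970 CDCA peaks, and 958 of them involved no further peak. The median distance between the control and CDCA summit was 14 bp (95% interval of the median 13 to 16, quartiles 5 and 30), or 2.87% of the length of the shorter peak. The position of the summit was not part of the choice of the peaks. The summits coincided exactly in 44 pairs, lay within 10 bp in 397 (40.9%), within 25 bp in 679 (70.0%), within 50 bp in 849 (87.5%) and within 100 bp in 941 (97.0%). The CDCA summit had the higher coordinate in 452 pairs and the lower in 474, and the signed median was 0 bp.

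Taken over all lengths, the summits agreed more closely than the peaks' boundaries. Over the same 970 pairs the midpoints of the peaks differed by a median of 32.5 bp, the starts by 30 bp and the ends by 34 bp. This did not hold for the shortest peaks. With the longer peak under 400 bp (101 pairs) the medians were 12 bp for summits and 10.5 bp for midpoints. For starts and ends they were 12 and 13 bp. At 800 bp or more (241 pairs) the medians were 15 bp for summits and 63.5 bp for midpoints. Over all 970 pairs, the peaks of a pair shared a median of 86.2% of the longer one. Their lengths were within 10% of each other in 412 pairs, and the median ratio of CDCA to control length was 1.01.

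Agreement between summits improved with height throughout the range. With both peaks at most 1000 bp and pairs placed by their lower height, the median distance was 81 bp below 30 (3923 pairs), 54 bp between 30 and 100 (3381) and 28 bp between 100 and 300 (1832). Within the tall pairs it was 18 bp (16 to 21) between 300 and 500 (471 pairs), 12 bp (10 to 14) between 500 and 1000 (337) and 8 bp (5 to 10) at 1000 and above (162). Between neighbouring tall bands the intervals did not overlap, apart from meeting at 10 bp in the 2 tallest. The order was the same with length held alike. With the longer peak between 400 and 600 bp, the median was 53 bp at 30 to 100, 26 bp at 100 to 300 and 13 bp (11 to 16) at 300 or above. Among the tall pairs themselves the median lay between 12 and 15.5 bp in each of 4 length classes.

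**Figure D2:**
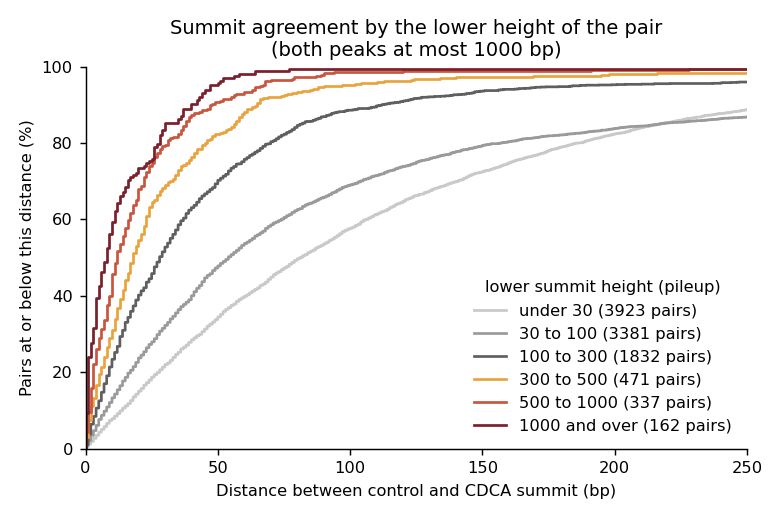
Cumulative share of pairs (y axis, percent) at or below a given distance between control and CDCA summits (x axis, bp), for pairs of peaks of at most 1000 bp by the lower of their heights. Colours mark the pairs of tall peaks and greys the lower ones, and the median falls from 81 bp in the lowest band to 8 bp in the highest.

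Summits lay farther apart in pairs that included a peak over 1000 bp. In 568 pairs of tall peaks with at least 1 longer peak the median distance was 21.5 bp (19 to 25), and 84 pairs (14.8%) were over 100 bp apart, against 29 of 970 (2.99%) here. The share over 100 bp also rose with length within the 970 pairs, from 0 of 101 with the longer peak under 400 bp to 15 of 241 (6.22%) at 800 bp or more. Pairs unlike in height or low in enrichment had similar median distances. The distance had a median of 15 bp in the 115 pairs whose heights differed by at least 1.5 times and 14 bp in the other 855. It was 17 bp (12 to 21) where the lower fold was under 10 and 14 bp (12 to 15) elsewhere. The share over 100 bp was larger in both sets. It was 6 of 115 (5.22%) against 23 of 855 (2.69%) by height, and 9 of 217 (4.15%) against 20 of 753 (2.66%) by fold.

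The most distant summits of a pair were 516 bp apart, at chr1:107690705-107691580 in control and chr1:107691204-107691579 in CDCA, where the CDCA peak covered the right-hand part of the control peak only. At chr11:57095242-57096030 the boundaries in the lists differed by 1 bp, yet the summits were 468 bp apart, with heights of 312 and 335. The next lay at chr17:40120120-40120865 (CDCA summit 405 bp to the left), chr20:10604084-10604774 (350 bp to the right) and chr3:141161335-141162138 (340 bp to the left). In these 5 pairs the lower height ran from 312 to 523, and the peaks themselves overlapped widely in all but the first.

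Heights of a pair are given as a description, since both had to be at least 300. Across the 970 pairs the log2 heights in control and CDCA correlated with a Pearson r of 0.903 and the heights with a Spearman rho of 0.812. These describe regions of the same 2 libraries, chosen on height in both. The CDCA to control height ratio had a median of 0.925 (quartiles 0.780 and 1.09), and 90% of pairs lay between 0.607 and 1.41. On the log2 scale the median was -0.11 and the SD over pairs 0.388. Heights were within 10% of each other in 281 pairs. Over the 1678 pairs in which at least 1 peak was tall and of limited width, the SD was 0.598, and 441 pairs (26.3%) differed by at least 1.5 times.

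The position of the median depends on how the lists are scaled, while a factor common to all pairs leaves the spread as it is. Heights in each list are whole multiples of a step, 0.862 in control and 0.640 in CDCA, so a height of 300 stood for at least 348 fragments in control and 470 in CDCA if 1 step is 1 fragment. As deposited, 614 of 970 pairs had a ratio below 1, a median of -0.11 on the log2 scale. Divided by the lowest background of its list (0.798 in control, 0.745 in CDCA), the median was -0.01 and 505 pairs were below 1. Centred on all 11870 overlapping pairs of the lists, whose median was -0.24, it was 0.13 with 358 below 1. In fragments, which are not scaled between the libraries, it was 0.32 with 171 below 1. No direction common to these sites can therefore be read from the lists.

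**Figure D3:**
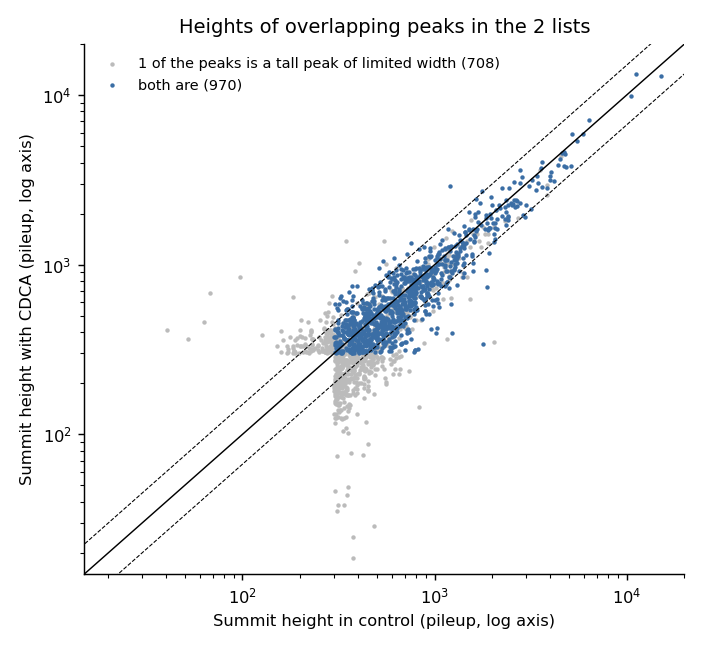
Summit height in CDCA (y axis) against control (x axis), both log axes, 1 point per overlapping pair. Blue points are the 970 pairs in which both peaks are tall and of limited width, grey points the 708 in which 1 is, the solid line is equal height and the dashed lines a ratio of 1.5 either way, and 855 blue points lie between the dashed lines.

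The spread of the height ratio takes in every difference between the 2 libraries, and its bands use the height that chose the peaks, so it is given as a description. If 1 step is 1 fragment, the counting error of the log2 ratio had a median of 0.0739 and was at most 0.101 over the 970 pairs, and the SD of the ratio was 0.388. Between lower heights of 100 and 300 the SD was 0.544 and the median counting error 0.130, between 30 and 100 they were 0.768 and 0.225, and below 30 they were 0.949 and 0.372. Within the tall pairs the SD was 0.401 at a geometric mean height of 300 to 500, 0.405 at 500 to 1000, 0.346 at 1000 to 2000 (125 pairs) and 0.261 at 2000 and above (64 pairs). Fragments are not known to be independent molecules, and the choice on height in both lists removes pairs in which 1 peak is low. With pairs chosen on 1 list alone the median ratio was 0.844 from the control side (1412 pairs) and 0.949 from the CDCA side (1236 pairs). With the geometric mean height at 300 or more, which treats both lists alike, the ratio had a median of 0.899 and an SD of 0.451 on the log2 scale over 1151 pairs.

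A ratio of at least 1.5 either way, on the heights as deposited, was found in 115 of the 970 pairs (11.9%), against 43.7% of all overlapping pairs of the lists. CDCA was higher in 33 (3.40%, against 12.0% of all overlapping pairs) and lower in 82 (8.45%, against 31.7%). As height chose the tall pairs and the other pairs are lower, with larger counting error, nothing is read from this difference. The split changes with the scaling. Centred on all overlapping pairs, 105 were higher and 32 lower (10.8% and 3.30%), against 19.8% and 21.8% of all overlapping pairs. Over the lowest background 53 were higher and 56 lower (5.46% and 5.77%), against 14.8% and 27.3%. In fragments, not scaled between the libraries, 215 were higher and 15 lower, with no share over all overlapping pairs beside them. Nothing is read from these counts either. A ratio of at least 2 was found in 18 of the 970 pairs, 3 of them higher and 15 lower as deposited. Among the 1678 pairs with at least 1 such peak it was found in 136, 23 higher and 113 lower, and among all 11870 overlapping pairs in 2530.

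Height was part of the choice of the pairs, which narrows the height ratio. Fold enrichment was not, but no listed peak of either library had a fold under 6, which limits the fold ratio too. The spreads of the 2 ratios therefore cannot be set against each other here. Over all overlapping pairs of the lists the SDs on the log2 scale were 0.812 for height, 0.878 for fold and 0.911 for background. Over the 970 tall pairs the fold ratio had a median of 1.02 (quartiles 0.751 and 1.34) and an SD of 0.667 on the log2 scale, and the ratio of backgrounds had an SD of 0.692. A fold ratio of at least 1.5 either way was found in 333 pairs (34.3%, against 46.8% of all overlapping pairs). In 172 the CDCA fold was higher (17.7%, against 19.0%) and in 161 it was lower (16.6%, against 27.8%). In 277 pairs the fold differed by at least 1.5 times while the height did not. In 45 pairs both measures differed by at least 1.5 times the same way, 12 with CDCA higher and 33 with CDCA lower. These counts were not set beside all overlapping pairs, so nothing is read from them. Across pairs the log2 fold ratio followed the log2 background ratio with a Pearson r of -0.828 and the log2 height ratio with an r of 0.341. The background was computed from fold and height, so the 3 ratios are linked by arithmetic and these values are a description.

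The spread of the fold ratio was smaller where the background was high. The background was computed from fold and height, and no listed peak had a fold under 6. Both limit the fold ratios that a class can hold, so the values are a description. How much of the narrowing comes from these limits was not tested. Its SD was 0.961 with a geometric mean background under 10 (87 pairs), 0.748 at 10 to 30 (407), 0.541 at 30 to 100 (398) and 0.321 at 100 and above (78). The SD of the height ratio in the same classes was 0.427, 0.379, 0.401 and 0.302. Both backgrounds were whole numbers in 647 pairs. If these are fragments counted under the summit, the counting error of their log2 ratio had a median of 0.355, against an SD of 0.670 over those pairs.

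**Figure D4:**
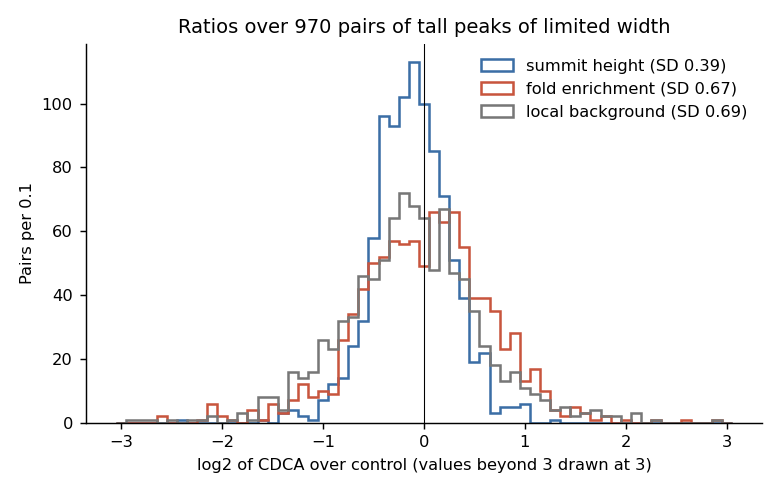
Number of pairs (y axis, per 0.1) by the log2 of CDCA over control (x axis) for summit height (blue), fold enrichment (red) and local background (grey), over the 970 pairs of tall, limited-width peaks. The SDs are 0.39 for height, 0.67 for fold and 0.69 for background. The choice of pairs on height in both lists narrows the first, and no listed peak had a fold under 6, which limits the second.

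At the low end, 10 pairs had a CDCA to control ratio between 0.191 and 0.436. The lowest lay at chr5:43298657-43299005, a short site of 349 bp in control and 338 bp in CDCA with summits 9 bp apart. Its height was 1779 in control and 340.3 in CDCA, a ratio of 0.191 (counting interval 0.174 to 0.210), and its fold was 42.4 and 14.8. The second, at chrX:46506080-46506853, had heights of 1238 and 398, a ratio of 0.321 (0.292 to 0.353), and a fold of 88.5 and 49.9. At chr17:79862158-79862884 the heights were 1022 and 395, a ratio of 0.387 (0.350 to 0.427), with a fold of 26.9 and 13.7. At these 3 sites height, fold and background were all lower in the CDCA library.

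Other sites at the low end differed in their makeup. At chr11:6340349-6340774 the height fell short by a ratio of 0.388 (820.2 and 318), but so did the background (84 and 30), and the fold was 9.66 and 10.3. The same held at chr19:17692125-17692605 (795 and 313, background 34 and 8, fold 22.7 and 34.9) and at chr5:140794410-140795036 (795 and 313, background 5 and 1.16, fold 133 and 145). In contrast, at chr8:42977096-42977943 (781 and 306) the background was higher with CDCA (6.66 and 12) and the fold ratio lower than the height ratio, with folds of 102 and 23.6. At chr5:179290362-179291095 (1869 and 738) the background was 28.2 and 41 and the fold 64.0 and 17.6. The remaining pair of sites, chr3:123452712-123453195 (1025 and 422) and chr1:107690705-107691580 (961 and 419), had lower fold and lower background with CDCA. At the chromosome 1 site the summits were 516 bp apart, so the values of the 2 libraries were taken at different places. Fold was lower with CDCA in 7 of the 10, background in 8 and both in 5.

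At the high end, 10 pairs had a ratio between 1.83 and 2.41. The highest lay at chr16:87864278-87865146, with heights of 1207 in control and 2905 in CDCA and summits at the same base. Its ratio was 2.41 (2.27 to 2.56), its fold 18.0 and 30.02, and its background 66.2 and 95.8. It was the only one of the 10 with a control height over 1000. The second, at chr18:72187460-72187983, had heights of 370.0 and 746, a ratio of 2.02 (1.80 to 2.26), while its background was 38 and 86 and its fold 9.51 and 8.59. At chr1:179886712-179887552 the heights were 327 and 658, a ratio of 2.01 (1.79 to 2.27), over nearly equal backgrounds of 22 and 21, with folds of 14.3 and 29.96.

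The next sites had control heights near the lower limit. They were chr9:74969776-74970375 (321 and 636), chr6:34826429-34827374 (302 and 589) and chr11:113604038-113604381 (357 and 692), with ratios of 1.98, 1.95 and 1.94. At the chromosome 6 site the background was 15 and 55, so the fold was lower with CDCA (18.9 and 10.5), and at the chromosome 11 site it was higher (16.3 and 35.7). The last 4 were chr6:35800917-35801740 (542 and 1049.7), chr21:38885366-38885982 (392 and 752), chr5:54460228-54460561 (516 and 954) and chr5:137843131-137843964 (318 and 583). Fold was higher with CDCA in 8 of the 10, background in 7 and both in 5. The median summit distance was 19.5 bp at the low end and 15.5 bp at the high end, against 14 bp over all 970 pairs. The low end also held the most distant summits of any pair, 516 bp apart.

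**Figure D5:**
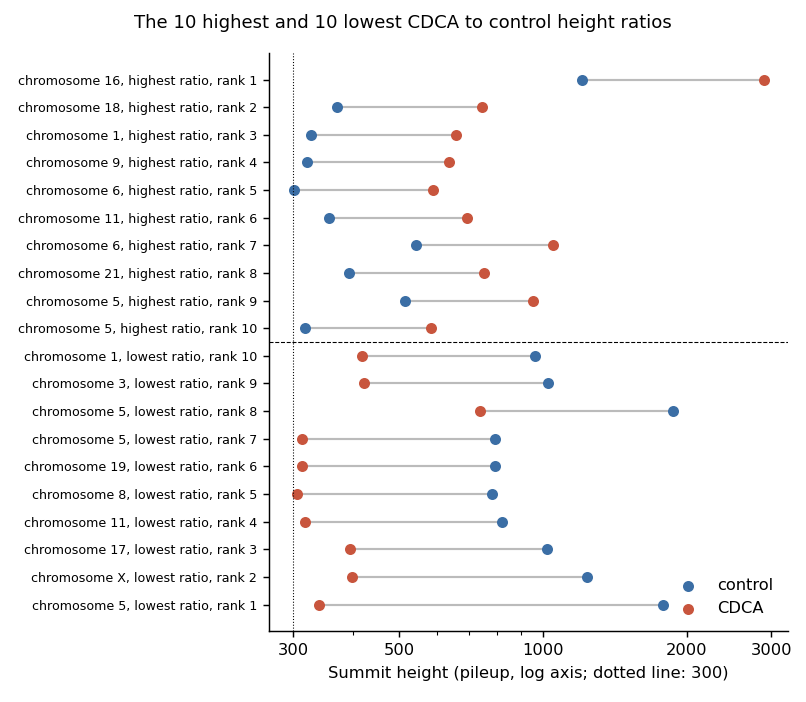
Summit height (x axis, log axis) in control (blue) and CDCA (red) at the 10 pairs with the highest and the 10 with the lowest CDCA to control ratio (y axis, by chromosome and rank), with the lower limit of 300 dotted. Control heights run from 781 to 1869 at the low end and from 302 to 1207 at the high end, and the lower limit in both lists forces control peaks at the low end to be tall.

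The end pairs are the extremes of 970, and their counting intervals leave out variation between libraries. Few had neighbours to compare with. Within 10 kb of the low-end pairs there were 10 other overlapping pairs of any height, 7 of them with a ratio below 1, and within 10 kb of the high-end pairs there were 3, of which 2 had a ratio above 1. Over all overlapping pairs 7576 of 11870 (63.8%) had a ratio below 1, so these few neighbours show nothing about the end sites. Among all 1-to-1 tall pairs, 39 neighbours within 5 kb of each other differed by a median of 0.27 in log2 ratio (quartiles 0.15 and 0.47). Neighbours more than 100 kb apart (807) differed by 0.33 (0.16 and 0.60). Neighbours lay on the same side of the median ratio in 24 of 39 near and 423 of 807 far cases.

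Larger ratios were found where a tall peak met a low one. The highest were 10.1 at chr11:130130876-130131161 in control and chr11:130130825-130131807 in CDCA (heights 40.5 and 410.0), and 10.03 at chr10:123969933-123970220 and chr10:123969912-123970871 (68.1 and 683). The lowest were 0.0491 and 0.0660 at chr11:566933-567895 in control (378), which met CDCA peaks of heights 18.6 and 24.95. Between them stood 0.0595 at chr14:90429244-90430211 (484 and 28.8). At 4 of these 5 the summits were 448 to 618 bp apart, so that the 2 heights were taken at different places within an overlap. The choice of these 5 followed a look at their values.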

How the data were processed

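Of 4 libraries, the immunoprecipitated ones of control and CDCA gave the peak lists used. Both inputs were not analysed here. MACS2 2.1.0, TopHat2 2.0.13 and hg19 appear in the submitters' processing notes, without their roles. Libraries were made from RNA freed of ribosomal RNA and read from both ends, per the labels' protocols. The sources used here do not state how input entered the lists or which threshold was set. The height is the authors' pileup, a signal deposited per peak at its summit. Fold enrichment was deposited as a ratio, and per the file headers 2 columns hold the −log10 p-value and −log10 q-value, which no result rests on. Positions are counted from 1.

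Local background was computed as height plus 1 over fold, minus 1. Steps were fitted to the heights, which were whole multiples within 0.02 steps for 100% of peaks. Pairs are peaks of both lists overlapping by at least 1 bp. Intervals of shares and of ratios are exact Clopper-Pearson intervals (95%), the latter from fragments, and intervals of medians come from order statistics. None of these intervals covers variation between libraries. With 1 library per condition no p-value was computed. The named regions are the 10 pairs at each end of the ratio, the 5 tallest peaks, the 5 tallest without a partner, the 5 most distant summits and 3 on each side of every limit, while the shortest peaks, those of highest fold and the largest ratios overall were chosen after their values were seen. The members and rules were chosen with earlier results of these data known. The planned search for sequence motifs was not done, as a genome of this build was not used here. Alternatives covered the limits, the overlap, the choice of pairs and the scaling. Pairing, distance and ratio were tested on simulated data. The work used Python 3.11.15 with matplotlib 3.10.9, scipy 1.17.1, pandas 2.3.3 and numpy 2.4.6.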

Additional observations from a re-analysis of the deposited data

How the results depend on the processing

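The median log2 height ratio of -0.11 was the result most open to the scaling. Its 95% interval, -0.14 to -0.09, covers the spread over pairs of these 2 libraries and leaves out variation between libraries. The median was 0.32 in fragments, 0.0276 as fold enrichment and 0.13 centred on all overlapping pairs. It was -0.0135 over the lowest background of each list, a scaling added after the data had been seen. By the choice of pairs it was -0.0884 at a length of at most 500 bp, -0.19 with at least 1 peak passing, -0.24 with the control peak passing, -0.0756 with the CDCA peak passing and -0.15 by geometric mean height, the last also added. Its SD of 0.388 became 0.667 on fold enrichment and 0.598 with at least 1 peak passing. The 115 pairs past a ratio of 1.5 became 18 at a ratio of 2 and 333 on fold enrichment. The median summit distance of 14 bp became 17 bp at a height of at least 200, 10 bp at 500, 11 bp at a length of at most 500 bp, 17 bp without a length limit and 17 bp with at least 1 peak passing. Asking for an overlap of 50% of both peaks lowered the partnered share from 92.1% in each list to 86.2% in control and 85.2% in CDCA. The number of peaks was 2394 and 2127 at a height of at least 200, 774 and 678 at 500, and 567 and 519 at a length of at most 500 bp. No paired analysis was possible because each condition had 1 library.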
